A study of Mus musculus with 12 samples.

Results

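Hepatokines are proteins that the liver secretes into the blood and that act on metabolism in other tissues. Liver RNA levels of 9 hepatokine genes were examined among the 54532 genes of the expression table: Fgf21, Gdf15, Fetub, Ahsg, Lect2, Inhbe, Inhbc, Tsku and Igfbp2. They were taken by symbol from a list drawn up with earlier results of these data known. The 12 livers came from male C57BL/6J mice in 4 groups of 3, all on their diet for 26 weeks from the age of 5 weeks. The ND group ate a normal diet, and the control group ate a high-fat diet with no supplement. The HYA and LA groups ate the high-fat diet with 1% of HYA or LA. LA is linoleic acid, a fatty acid of the diet, and HYA is the hydroxy fatty acid that gut bacteria make from it by adding water across a double bond. The labels name no transgene or mutation. HYA or LA was not given on the normal diet, so each supplement could be compared only within the high-fat diet. The control mice entered 3 of the 6 comparisons described here and the ND-fed mice also entered 3, so these comparisons are not independent of each other.

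RNA was sequenced as paired-end libraries of whole liver, and each value is in FPKM, fragments scaled by gene length and by a total for that mouse. The total implied by the value of 1 fragment was below the fragments on genes in ND-fed mice, so it was not simply the fragments mapped. In control and LA-treated mice it was above them. ND mouse 3 and control mouse 3 had 19595277 and 19625837 fragments on genes, yet 3 fragments on 2 kb equalled 0.0835 and 0.0724 FPKM. Scaling thus differed with diet. The livers gave 17169064 to 25220880 fragments on genes, and the log2 levels of any pair of mice correlated at 0.941 to 0.991 across genes. For a gene of 2 kb, 3 fragments equal 0.0607 to 0.0944 FPKM, a floor that covers counting error only. The tests used the 11083 genes that averaged 1 FPKM or more, and all 9 members were among them. Their levels are those of a whole tissue, in which fewer cells of a type and less RNA per cell cannot be told apart.

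The 9 genes are introduced here in 4 sets. FGF21 and GDF15 are hormones of the fasted or stressed liver. FGF21 acts through a receptor complex with beta-Klotho on fat and brain and is known for its induction by PPAR-alpha and by the transcription factor ATF4, whereas GDF15 acts on the hindbrain receptor GFRAL and curbs appetite. Inhbe and Inhbc encode the beta subunits of activin E and activin C, members of the TGF-beta family that are made mainly by the liver, and activin E restrains the breakdown of fat in adipose tissue. Ahsg (fetuin A) and Fetub (fetuin B) encode cystatin-type plasma proteins, the first of which inhibits calcification and the insulin receptor, and the second of which protects the egg coat from proteases and has been linked to glucose intolerance. Igfbp2 binds insulin-like growth factors in plasma, LECT2 is a chemotactic factor of hepatocytes, and tsukushi is a small leucine-rich proteoglycan.

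The genes lie on 6 chromosomes of the mouse build GRCm38, and 2 pairs of them are neighbours. Ahsg (ENSMUSG00000022868, chr16:22891277-22899449, plus strand) ended 18884 bases before Fetub (ENSMUSG00000022871, chr16:22918334-22939778, plus strand), and their relatives Hrg (chr16:22951072-22961656), Kng2 and Kng1 followed on the same chromosome. Inhbe (ENSMUSG00000047492, chr10:127348857-127354411, minus strand) and Inhbc (ENSMUSG00000025405, chr10:127356322-127370431, minus strand) were 1910 bases apart. The other members were Fgf21 (ENSMUSG00000030827, chr7:45613886-45615490, minus strand), Gdf15 (ENSMUSG00000038508, chr8:70629393-70632456, minus strand), Lect2 (ENSMUSG00000021539, chr13:56542464-56548502, minus strand), Tsku (ENSMUSG00000049580, chr7:98350668-98361328, minus strand) and Igfbp2 (ENSMUSG00000039323, chr1:72824503-72852474, plus strand). Ahsg overlapped the antisense gene CT027991.1 (3.65 FPKM on average), and both activin genes overlapped the antisense gene Gm47200 (2.68 FPKM). Whether the counting used strand is not given in the sources used here, so reads of these overlapping genes may not be told apart.

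The promoters of 2 members held the core of the site that ATF4 and C/EBP factors bind, TGATGNAA, which was searched on both strands from 250 bases before to 50 bases after each RefSeq start. This core was found in 3.97% of the 32851 promoter windows of the table and in 2 of the 13 windows of the members, that of Fgf21 and that of Inhbe. Both are shown because these genes and Gdf15 were the members with more RNA on the high-fat diet. The sequences are the 250 bases before the start on the gene's strand (RefSeq, GRCm38.p6), at chr7:45615491-45615740 for Fgf21 and chr10:127351849-127352098 for Inhbe, both on the minus strand. Capitals mark the core, which reads as its reverse complement here.
Fgf21: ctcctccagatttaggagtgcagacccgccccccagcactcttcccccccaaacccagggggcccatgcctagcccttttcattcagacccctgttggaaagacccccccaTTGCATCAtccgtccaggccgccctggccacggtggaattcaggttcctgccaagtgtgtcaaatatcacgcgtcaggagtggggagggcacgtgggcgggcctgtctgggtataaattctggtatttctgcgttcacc
Inhbe: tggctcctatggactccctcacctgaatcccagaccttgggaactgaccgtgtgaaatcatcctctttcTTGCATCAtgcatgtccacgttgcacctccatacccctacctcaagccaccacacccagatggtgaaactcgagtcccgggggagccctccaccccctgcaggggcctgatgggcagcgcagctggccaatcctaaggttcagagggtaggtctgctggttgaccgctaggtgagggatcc
The core began 139 bases before the start of Fgf21 and 181 bases before that of Inhbe. The Inhbe sequence lies inside the gene model of the expression table, which reached 2563 bases beyond the RefSeq start. It is thus not upstream of the model on which Inhbe RNA was counted. No match was found in the windows of Gdf15, the other 6 members or their alternative starts. The TATA box letters TATAAA, present in 13.6% of all windows, began 28 bases before the start of Fgf21 and 31 before that of Fetub. The nuclear receptor core AGGTCA, present in 16.3% of windows, was found in a window each of Gdf15 and Inhbc, and the HNF4-type site CAAAGTCCA (0.475% of windows) in none of the members. These matches describe the letters in these windows and say nothing of binding.

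Levels per length differed widely between the members. Ahsg, with a mean of 1713 FPKM over the 12 mice, ranked 28 of the 11083 genes. Igfbp2 (127 FPKM, rank 364), Lect2 (127 FPKM, rank 365) and Fetub (119 FPKM, rank 394) stood next to each other. The activin gene Inhbc (37.2 FPKM, rank 1182), Tsku (34.1 FPKM, rank 1287) and Inhbe (24.8 FPKM, rank 1667) were of middle rank. Gdf15 (9.74 FPKM, rank 3609) and Fgf21 (8.60 FPKM, rank 3968) had the least RNA. Inhbe was divided by a length of 5319 bases, since its gene model reached 2563 bases beyond the RefSeq start, so its level relative to Inhbc depends on that model.

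The first question was what the high-fat diet did to these genes. Compared with ND-fed mice, 3 of the 9 members were higher in control mice (Fgf21, Gdf15 and Inhbe) and 4 were lower (Fetub, Ahsg, Inhbc and Igfbp2) at an adjusted p under 0.05 in limma, while Lect2 and Tsku were not called. Over all genes tested, 16.2% were called higher and 19.1% lower in this comparison. With the added requirement of an absolute log2 fold change above 1, 4 members were called (Fgf21, Gdf15, Fetub and Igfbp2), against 3.88% of all genes. On the TPM scale Fetub (-0.99) and Igfbp2 (-0.89) fell short of that threshold, which left Fgf21 and Gdf15. In 6 members the ranges of the groups did not overlap, which was the case for 45.6% of all genes. On the TPM scale all genes together shifted, from a median log2 fold change of -0.04 to 0.15, and the share of called genes that were higher went from 45.9% to 83.8%. All 7 members called kept their direction and call on that scale, and Lect2 was added, with a log2 fold change of 0.46 (adjusted p = 0.0208). Of the 11083 genes, 3789 were called higher and 735 lower on that scale.

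The second question was what the supplements did on the high-fat diet. Fetub was the only member called between HYA-treated and control mice and was higher with HYA, against 1.57% of all genes called higher and 1.23% called lower. No member was called between LA-treated and control mice, a comparison in which limma called 0% of genes higher and 0% lower and no member had an unadjusted p under 0.05. Between HYA-treated and LA-treated mice Fetub was again the only member called and was higher with HYA, against 0.235% of genes called higher and 0.253% called lower. The ranges did not overlap for 3 members between HYA and control (21.6% of all genes), for 0 members between LA and control (7.55%) and for 5 members between HYA and LA (25.2%). On the TPM scale the share of called genes that were higher went from 56.1% to 19.2% for HYA against control and from 48.1% to 17.9% for HYA against LA, and Fetub remained called in both. That scale called 101 genes higher and 426 lower in HYA against control, and 35 and 161 in HYA against LA.

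**Figure D1:**
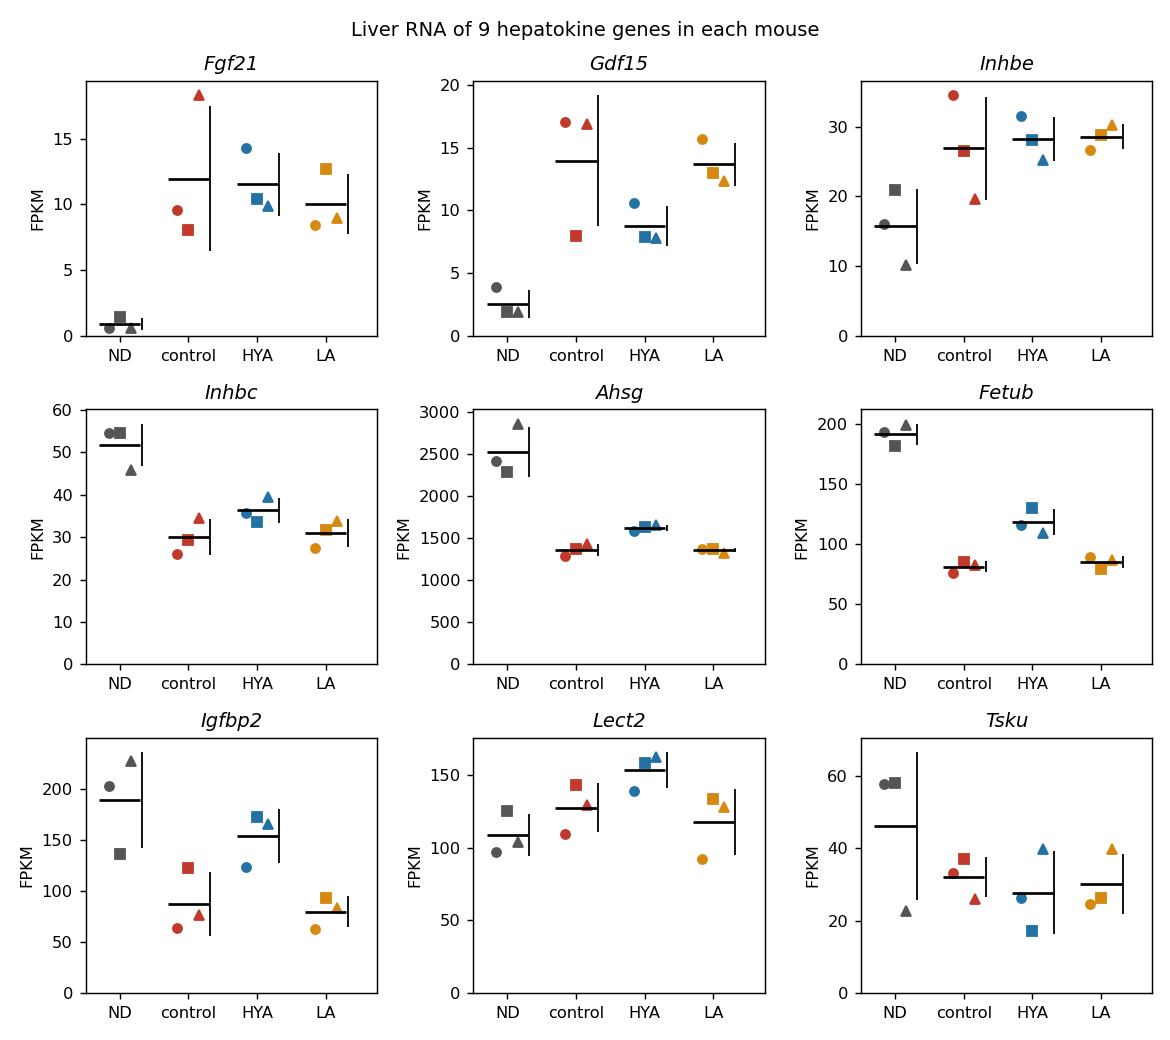
FPKM of each hepatokine gene in each mouse, by diet group. Circles, squares and triangles are mice 1, 2 and 3, the horizontal line is the mean and the vertical line ± 1 SD (n = 3). The 3 ND-fed mice had 0.599 to 1.46 FPKM of Fgf21 and all mice on the high-fat diet at least 8.07, while Fetub of the HYA-treated mice (110 to 131 FPKM) lay between ND and the other groups.

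Fgf21 showed the largest difference of the 9 genes between diets. Its values in ND-fed mice were 0.599, 1.46 and 0.644 FPKM, resting on 10 to 22 fragments. In control mice they were 9.54, 8.07 and 18.3 FPKM, in HYA-treated mice 14.3, 10.4 and 9.87, and in LA-treated mice 8.44, 12.7 and 8.96. All 9 mice on the high-fat diet were thus above all ND-fed mice, and the 3 high-fat groups overlapped each other. The mean of control mice (12.0 ± 5.51 FPKM, SD, n = 3) was 13.3 times that of ND-fed mice (0.899 ± 0.483 FPKM). The log2 fold change on the log2(FPKM + 1) scale was 2.72 ± 0.28 (SE, adjusted p = 4.82e-05), a scale that understates the change of a low gene, and it was 3.602 with a pseudocount of 0.1. Neither supplement moved Fgf21 beyond the spread between mice. The difference was 0.01 for HYA against control (95% interval -0.60 to 0.62, adjusted p = 0.988) and -0.17 for LA against control (-0.78 to 0.44, adjusted p = 0.999), and the sign of both was not stable when single mice were left out.

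The stress hormone gene Gdf15 also rose with the high-fat diet. ND-fed mice had 3.87, 1.90 and 1.92 FPKM, control mice 17.0, 7.99 and 16.9, HYA-treated mice 10.6, 7.92 and 7.80, and LA-treated mice 15.7, 13.0 and 12.4. Control mouse 2 fell among the HYA-treated mice, whereas all LA-treated mice were above all HYA-treated mice. The log2 fold change of control over ND was 2.04 ± 0.27 (adjusted p = 0.000268). HYA against control gave -0.56 (95% interval -1.16 to 0.05, adjusted p = 0.311) and HYA against LA -0.59 (-1.197 to 0.01, adjusted p = 0.301), neither of which passed the test. Without control mouse 2 the difference between HYA and control was -0.89 and was called (adjusted p = 0.0413). That fit called 377 of all genes higher and 276 lower, against 174 and 136 with all mice. Over all alternatives the adjusted p of Gdf15 between HYA and control ranged from 0.0413 to 0.657. The ratio of Fgf21 to Gdf15 within a mouse was 1.27 to 1.35 with HYA, above that of each of the other mice, in which it was 0.560 to 1.080 (control), 0.539 to 0.978 (LA) and 0.155 to 0.765 (ND). This ratio was chosen after the values were seen and was not tested.

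The activin genes Inhbe and Inhbc moved in opposite directions with the high-fat diet, although they are neighbours. Inhbe was at 16.02, 20.9 and 10.2 FPKM in ND-fed mice, at 34.5, 26.5 and 19.7 in control mice, at 31.5, 28.0 and 25.2 with HYA and at 26.6, 28.7 and 30.3 with LA. The ND-fed and control ranges overlapped at control mouse 3, and all HYA- and LA-treated mice were above all ND-fed mice. Control over ND gave 0.76 ± 0.23 (adjusted p = 0.0269). This call did not hold without ND mouse 3 (0.49, adjusted p = 0.0864), without control mouse 1 (0.57, 0.108) or without control mouse 2 (0.75, 0.0595), nor with no filter on low genes (adjusted p = 0.0617) or in a fit of those 2 groups alone (0.0897). Inhbc was at 54.6, 54.5 and 45.9 FPKM in ND-fed mice, at 26.0, 29.4 and 34.5 in control mice, at 35.6, 33.6 and 39.5 with HYA and at 27.4, 31.7 and 33.8 with LA. Its ND-fed mice stood above all others. Control over ND was at -0.77 ± 0.11 (adjusted p = 0.000502), and that of HYA over control was 0.27 (95% interval 0.02 to 0.53, adjusted p = 0.228).

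Within each mouse the ratio of Inhbc to Inhbe separated the diets without overlap. It was 3.41, 2.61 and 4.52 in ND-fed mice, 0.754, 1.11 and 1.75 in control mice, 1.13, 1.201 and 1.57 with HYA, and 1.03, 1.10 and 1.12 with LA. The lowest ND-fed mouse was above the highest mouse on the high-fat diet, and the 3 high-fat groups overlapped. A ratio within a library shows unequal change and not which of its genes changed. Both genes were already called in opposite directions in these data, so the ratio is no separate support. It was not tested.

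The fetuin genes varied little within groups and were lower on the high-fat diet. Fetub was at 194, 182 and 199 FPKM in ND-fed mice, at 76.0, 85.3 and 83.0 in control mice, at 116, 131 and 110 with HYA and at 89.2, 79.5 and 87.4 with LA. The HYA-treated mice lay above all control and LA-treated mice and below all ND-fed mice, while control and LA-treated mice overlapped. The log2 fold change of control over ND was -1.23 ± 0.08 (adjusted p = 2.15e-06). HYA against control gave 0.54 ± 0.08 (95% interval 0.37 to 0.71, adjusted p = 0.0166), a mean of 119 ± 10.8 FPKM (SD, n = 3) against 81.4 ± 4.81. HYA against LA gave 0.47 ± 0.08 (0.30 to 0.64, adjusted p = 0.0365), and LA against control gave 0.07 (-0.10 to 0.24, adjusted p = 0.999). HYA-treated mice remained below ND-fed mice by a log2 fold change of -0.69 (adjusted p = 0.000212).

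The size of the Fetub difference was steadier than its call. Over the alternatives the log2 fold change of HYA over control stayed between 0.41 and 0.59, and its adjusted p ranged from 0.00665 to 0.128. The call was lost without control mouse 1 (adjusted p = 0.0536), without HYA mouse 2 (0.0751) and in a fit of those 2 groups alone (0.128). Few genes of any kind were called in these fits. Limma called none of the 11083 genes without HYA mouse 2 or in the fit of 2 groups. It called 17 higher and 12 lower without control mouse 1, against 174 and 136 with all mice. For HYA against LA, leaving out any 1 of the 6 mice ended the call, with an adjusted p of 0.0619 to 0.166 and a log2 fold change of 0.40 to 0.52. Calls over all genes were also few there. None was made without HYA mouse 2, LA mouse 1 or LA mouse 2. The other fits called at most 9 genes higher and 11 lower, against 26 and 28 with all mice.

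Ahsg, the most abundant member, was at 2418, 2282 and 2853 FPKM in ND-fed mice, at 1281, 1374 and 1425 in control mice, at 1580, 1625 and 1652 with HYA and at 1373, 1371 and 1326 with LA. As for Fetub, the HYA-treated mice lay between the ND-fed mice and the overlapping control and LA-treated mice. On the log2 scale control over ND was -0.88 ± 0.08 (adjusted p = 2.22e-05). HYA against control gave 0.25 (95% interval 0.08 to 0.43), with no overlap between the groups, but did not pass the adjustment over all genes (adjusted p = 0.119), and HYA against LA gave 0.25 (0.08 to 0.43, adjusted p = 0.137). The ratio of Ahsg to Fetub was 16.1 to 17.2 in control mice and 15.2 to 17.2 with LA, against 12.4 to 15.1 with HYA and 12.5 to 14.3 on ND. Ahsg thus differed less between these groups than Fetub did.

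Markers of the hepatocyte, the cell that makes the fetuins, also differed between the diets. Of 11 hepatocyte markers tested, 9 were lower in control mice than on ND and none was higher. Their median log2 fold change was -0.51, against -0.04 for all genes. With TPM 8 were lower and 1 higher (median -0.28). Between HYA-treated and control mice 1 of the 11 was called higher and none lower, with a median of 0.25 against 0.02 for all genes, and with TPM none was higher and 1 was lower. Their summed level was 42670 to 44340 FPKM in ND-fed mice, 28660 to 32580 in control mice, 36960 to 37800 with HYA and 31460 to 32320 with LA, and none of the 11 was at 0. Alb, which made up most of this sum, was at 28480 to 30140 FPKM in ND-fed, 19070 to 21530 in control, 24160 to 24900 in HYA-treated and 21040 to 21970 in LA-treated mice. Per 1000 FPKM of Alb, Fetub still stood apart, at 6.28 to 6.99 on ND, 3.96 to 3.99 in control mice, 4.46 to 5.25 with HYA and 3.72 to 4.15 with LA. Ahsg per 1000 FPKM of Alb overlapped between control mice (63.8 to 68.2) and HYA-treated mice (65.3 to 67.2), while LA-treated mice (62.5 to 64.1) lay below the HYA-treated mice and ND-fed mice (78.6 to 100.2) above all others. Of the other members, Inhbc then overlapped between ND-fed (1.61 to 1.88) and control mice (1.36 to 1.65). So did Igfbp2 (4.69 to 7.975 and 3.31 to 5.675) and Tsku. Lect2 (3.22 to 4.31 and 5.765 to 6.66) and Inhbe (0.357 to 0.720 and 0.942 to 1.81) came apart between these groups, and Fgf21 and Gdf15 stayed apart. Division by Alb was chosen after the values were seen and was not tested.

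**Figure D2:**
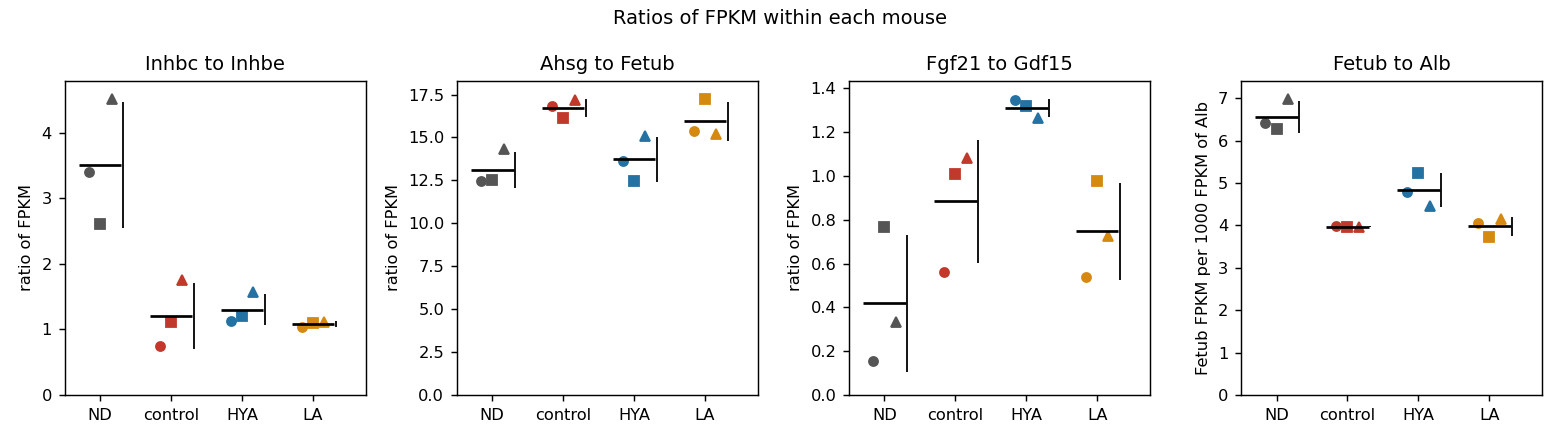
Ratios of FPKM within each mouse by diet group, for Inhbc to Inhbe, Ahsg to Fetub, Fgf21 to Gdf15, and Fetub per 1000 FPKM of Alb. Circles, squares and triangles are mice 1, 2 and 3, the horizontal line is the mean and the vertical line ± 1 SD (n = 3). The Inhbc to Inhbe ratio was at least 2.61 on ND and at most 1.75 on the high-fat diet, and the Fgf21 to Gdf15 ratio of HYA-treated mice (1.27 to 1.35) was above that of all other mice.

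Igfbp2, a binding protein of insulin-like growth factors, was lower in control and LA-treated mice than in ND-fed mice and was not called in HYA-treated mice against any other group. ND-fed mice had 202, 136 and 227 FPKM, control mice 63.1, 122 and 76.2, HYA-treated mice 124, 172 and 165, and LA-treated mice 62.7, 92.6 and 83.2. The HYA-treated mice lay within or close to the ND-fed range and above all control and LA-treated mice, but the lowest of them (123.8 FPKM) was barely above control mouse 2 (122.2 FPKM). The log2 fold change of control over ND was -1.13 ± 0.26 (adjusted p = 0.00683) and that of LA over ND -1.22 (adjusted p = 0.00498). HYA against ND gave -0.27 (95% interval -0.85 to 0.30, adjusted p = 0.509), an interval that does not show that the level was that of ND. HYA against control gave 0.85 (0.28 to 1.43, adjusted p = 0.107) and HYA against LA 0.95 (0.37 to 1.52, adjusted p = 0.103), the largest differences with HYA among the 9 genes, though neither passed the test. Without control mouse 2 the difference between HYA and control was 1.12 and was called (adjusted p = 0.0251). In that fit 377 of all genes were called higher and 276 lower, against 174 and 136 with all mice. Over all alternatives the adjusted p of Igfbp2 between HYA and control ranged from 0.0251 to 0.354.

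On the FPKM scale Lect2 did not differ beyond its spread between ND-fed and control mice. With TPM it was called higher in control mice (0.46, adjusted p = 0.0208), so this result depends on the scale. It was at 96.9, 125 and 104 FPKM on ND, at 110, 143 and 130 in control mice, at 139, 158 and 163 with HYA and at 92.0, 134 and 128 with LA. The HYA-treated mice were above all ND-fed and all LA-treated mice and overlapped the control mice. Control against ND gave a log2 fold change of 0.23 (95% interval -0.10 to 0.56, adjusted p = 0.267), HYA against control 0.27 (-0.06 to 0.60, adjusted p = 0.379) and HYA against LA 0.39 (0.06 to 0.72, adjusted p = 0.214). HYA against ND was called at 0.50 (adjusted p = 0.046). That call was lost without ND mouse 1 (adjusted p = 0.133), ND mouse 3 (0.108), HYA mouse 1 (0.0611), HYA mouse 2 (0.122) or HYA mouse 3 (0.120).

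Tsku varied more between mice of a group than between groups. It was at 57.7, 58.2 and 22.6 FPKM on ND, at 33.2, 37.0 and 26.0 in control mice, at 26.4, 17.0 and 39.9 with HYA and at 24.6, 26.2 and 39.7 with LA. All 4 groups overlapped because of ND mouse 3, which had less than any control mouse. Control against ND gave a log2 fold change of -0.41 (95% interval -1.24 to 0.42, adjusted p = 0.430), and HYA against control -0.27 (-1.09 to 0.56, adjusted p = 0.778). Without ND mouse 3, Tsku was called lower in HYA-treated than in ND-fed mice (-1.11, adjusted p = 0.041) and in LA-treated than in ND-fed mice (-0.95, adjusted p = 0.0476), while with all mice these values were -0.67 (adjusted p = 0.244) and -0.51 (adjusted p = 0.336).

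**Figure D3:**
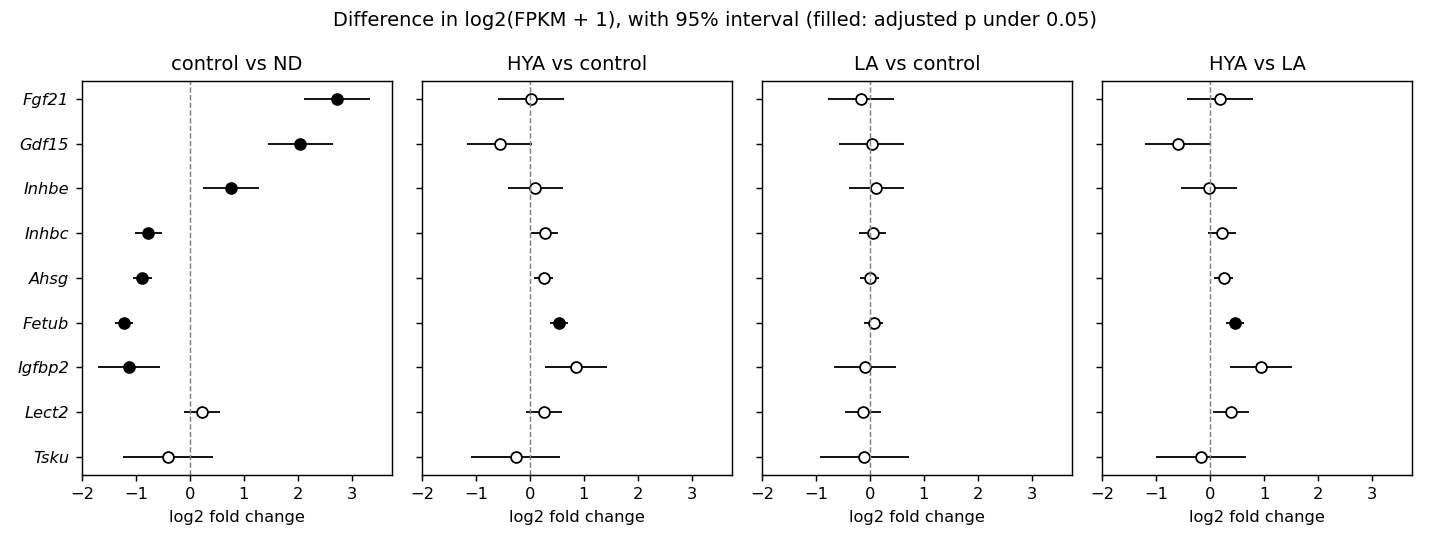
Log2 fold change of each hepatokine gene on the log2(FPKM + 1) scale with its 95% interval from limma, for 4 comparisons of 3 against 3 mice. Filled circles mark an adjusted p under 0.05. In control against ND, 7 of the 9 circles are filled, with Fgf21 at 2.72 and Fetub at -1.23, whereas only Fetub is filled for HYA against control (0.54) and for HYA against LA (0.47) and none for LA against control.

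A further question was which genes still differed from the normal diet when a supplement was given. With HYA, 4 members were higher than on ND (Fgf21, Gdf15, Lect2 and Inhbe, against 8.72% of all genes) and 3 were lower (Fetub, Ahsg and Inhbc, against 7.85%). The call of Inhbe (0.86, adjusted p = 0.0291) was lost without ND mouse 1 (adjusted p = 0.0577), ND mouse 3 (0.078), HYA mouse 1 (0.0919) or HYA mouse 2 (0.075), and that of Inhbc (-0.50, adjusted p = 0.0139) without ND mouse 2 (0.0553) or HYA mouse 2 (0.0556). With LA, 3 members were higher (Fgf21, Gdf15 and Inhbe, against 14.4% of all genes) and 4 were lower (Fetub, Ahsg, Inhbc and Igfbp2, against 16.6%). On the TPM scale the share of called genes that were higher went from 52.6% to 79.0% for HYA and from 46.4% to 85.3% for LA, and 7 members were called in each. Of the 11083 genes, that scale called 1555 higher and 414 lower for HYA, and 3602 and 622 for LA.

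HYA and LA were compared directly at the same dose and time. Besides Fetub, the groups did not overlap for Igfbp2, Ahsg and Lect2, all higher with HYA, and for Gdf15, lower with HYA, but none of these 4 passed the adjustment. For Fgf21 the difference was 0.19 (95% interval -0.42 to 0.80, adjusted p = 0.783), for Inhbe -0.02 (-0.53 to 0.50, adjusted p = 0.981), for Inhbc 0.22 (-0.03 to 0.48, adjusted p = 0.348) and for Tsku -0.16 (-0.99 to 0.66, adjusted p = 0.871). These intervals do not show that the fatty acids acted alike on those genes.

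The genes around each hepatokine were described by the same fit. Counts of these lists on the TPM scale carry its shift of all genes. In control against ND it called 3789 of the 11083 genes higher and 735 lower, against 1795 and 2115 on the FPKM scale. Of 25 other liver-secreted proteins tested, 9 were higher and 4 lower in control mice than on ND (median 0.21 on the log2 scale). Lcn2, an iron-siderophore carrier, rose from 1.02 to 25.6 FPKM (3.67, adjusted p = 1.95e-05), and Orm2, an acute phase protein, from 9.76 to 57.8 FPKM (2.44, adjusted p = 2.95e-05). Enho, which encodes adropin, went from 6.13 to 1.17 FPKM (-1.71, adjusted p = 4.04e-06). With TPM 14 were higher and 3 lower. With HYA the only call in this group was Gpnmb, which was lower (-0.88, adjusted p = 0.0296), and with TPM 5 were lower and none higher.

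In the FGF21 pathway, 1 of 11 genes tested was higher and 4 were lower in control mice. Dusp6, a feedback phosphatase of FGF signalling, was higher (0.72, adjusted p = 0.00161), whereas Spry4, another feedback inhibitor, was lower (-0.65, adjusted p = 0.000428), as was Mlxipl, which encodes the carbohydrate sensor ChREBP (-0.95, adjusted p = 3.27e-05). With HYA, Spry4 (0.58, adjusted p = 0.0179) and Mlxipl (0.43, adjusted p = 0.039) were higher than in control mice, though Mlxipl was not called on the TPM scale (adjusted p = 0.0526). On that scale control against ND gave 2 higher and 2 lower genes of this pathway. Of 20 PPAR-alpha target genes, 13 were higher in control mice and none lower, with a median of 0.34, among them Vnn1 (1.63), Plin2 (1.32) and Cyp4a31 (1.39), and 1, Cyp4a31, was lower with HYA (-0.35, adjusted p = 0.0487), where 2 were lower on the TPM scale. Of 12 genes of the integrated stress response, 3 were higher, including Atf3 (1.21) and Vldlr (0.70), and 2 were lower, including Cth (-1.38), with a median of 0.18. None was called with HYA, but 1 was lower on the TPM scale. Ddit3, which encodes CHOP, was listed at 0 in all 12 mice. Of 14 genes of fasting and feeding, 7 were higher and none lower in control mice, among them the lipogenic genes Pnpla3 (2.68) and Acaca (0.84) and the oxidation gene Cpt1a (1.07). Of 11 LXR genes, 4 were higher, including Pltp (1.43) and Scd1 (0.81), and 2 were lower, including Abca1 (-0.70). With HYA no gene of these last 2 lists was called, but 1 of each was lower on the TPM scale.

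Among 11 genes of the activin pathway, 1 was higher and 3 were lower in control mice and none was called with HYA. The subunit gene Inhbb was higher (0.84, adjusted p = 0.000681, means of 1.70 and 0.505 FPKM), and the subunit gene Inhba (-0.78, adjusted p = 0.00129) and the receptor gene Acvr2a (-0.21, adjusted p = 0.0327) were lower. On the TPM scale 3 were higher and 1 lower, and Acvr2a was at -0.01 (adjusted p = 0.912). Of 6 relatives of the fetuins, 3 were higher and 2 lower in control mice. Hrg, which lies next to Fetub and encodes histidine-rich glycoprotein, was lower (-0.65, adjusted p = 0.000216), as was the kininogen gene Kng1 (-0.47, adjusted p = 0.000532), while the intracellular protease inhibitor gene Cstb was higher (0.59, adjusted p = 0.000531). With HYA, 2 of these 6 were higher, including Hrg (0.41, adjusted p = 0.0357), and Cstb was lower (-0.40, adjusted p = 0.0442), while with TPM 1 was higher and 1 lower. Of 10 genes of the IGF pathway, 3 were higher and 3 lower in control mice, the lower ones being Igfals, the acid-labile subunit that holds IGF1 in plasma (-1.53, adjusted p = 2.23e-06), the growth hormone receptor gene Ghr (-0.73, adjusted p = 0.000159) and Igf1 (-0.70, adjusted p = 0.000345). With TPM 6 were higher and 3 lower. Igfals was the only call of this pathway with HYA, at 32.4 against 21.7 FPKM (0.57, adjusted p = 0.0205).

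The pattern of each member over the 9 mice on the high-fat diet was compared with that of all protein-coding genes tested. The nearest gene was Hpd for Igfbp2 (Pearson r = 0.994), Efemp2 for Gdf15 (0.986), Ndst1 for Fetub (0.986), Acadvl for Ahsg (0.979), Hspd1 for Lect2 (0.973), Cab39 for Tsku (0.962), Sppl2a for Inhbc (0.949), Ythdf1 for Fgf21 (0.919) and Mef2a for Inhbe (0.911). The next were Ivd (0.992), Calu (0.978), Retreg3 (0.972), Ggact (0.976), Dcaf11 (0.965), Mpzl3 (0.960), Syt3 (0.946), Mcfd2 (0.908) and Wrn (0.897) in the same order of members. Between members, Fetub went with Ahsg (0.913) and Lect2 with Igfbp2 (0.907), and Gdf15 went against Igfbp2 (-0.942). These values describe 9 mice of 3 groups that share library scaling and the differences between groups, and the highest of many genes was taken each time.

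The time of day at which livers were taken is not given in the sources used here. Clock genes differed between mice of the same group, most widely in the control, HYA and LA groups. Dbp, an output gene of the clock, was at 14.97, 16.2 and 23.3 FPKM in ND-fed mice, at 50.02, 53.5 and 4.53 in control mice, at 19.1, 45.5 and 57.0 with HYA and at 9.45, 20.04 and 41.4 with LA. Control mouse 3 had the least Dbp and the most Arntl (3.23 FPKM, against 0.210 and 0.174 in the other control mice), and it had the highest Fgf21 (18.3 FPKM) of all 12 mice and the lowest Inhbe and Tsku of its group. Without this mouse the log2 fold change of Fgf21 between control and ND was 2.39 (adjusted p = 7.12e-05). With an index of Dbp against Arntl as a covariate, which was added after the data were seen, 7 members were again called between control and ND and Fetub was again called with HYA (0.54, adjusted p = 0.0127), but Lect2 (adjusted p = 0.0852) and Inhbe (0.0564) were no longer called between HYA and ND. Of 14 clock genes tested, 2 were lower in control mice than on ND (Clock, -0.73, and Nr1d1, -0.55) and none was called with HYA. With TPM Nr1d1 was at -0.31 (adjusted p = 0.156).

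**Figure D4:**
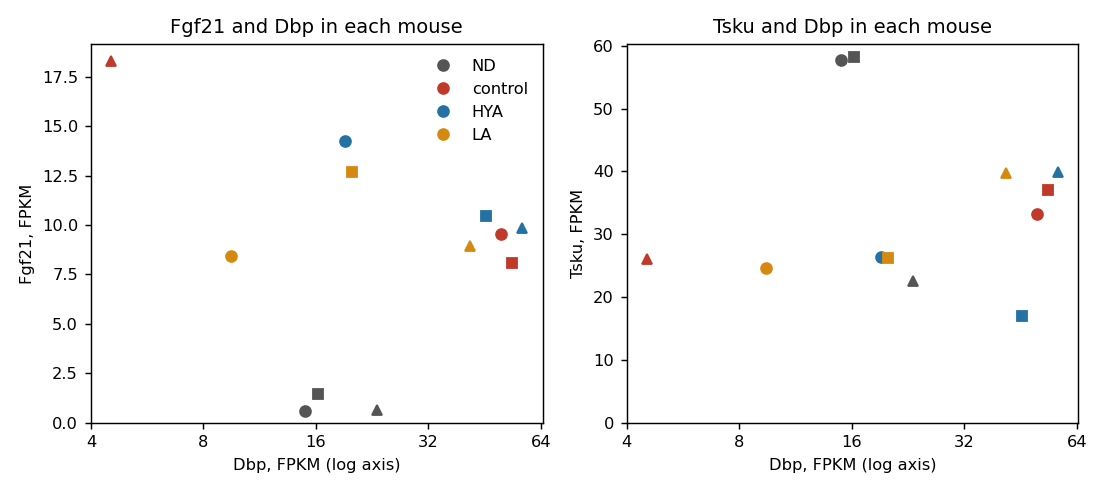
FPKM of Fgf21 and of Tsku against FPKM of the clock output gene Dbp (log axis) in each of the 12 mice, coloured by diet group, with circles, squares and triangles for mice 1, 2 and 3. Control mouse 3 stands alone at 4.53 FPKM of Dbp and 18.3 of Fgf21, and the 3 ND-fed mice lie together at 14.97 to 23.3 FPKM of Dbp and at most 1.46 of Fgf21.

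Markers of other cells of the liver moved with the diets as well. Their TPM counts stand beside 3789 of all 11083 genes called higher in control against ND on that scale, against 1795 on the FPKM scale. In control against ND, 6 of 10 stellate cell markers were higher (9 on the TPM scale) and none lower, among them Col1a1 (2.55) and Col3a1 (2.25), as were 4 of 10 endothelial markers (9 on the TPM scale), 2 of 4 cholangiocyte markers (Spp1, 2.38, and Epcam, 0.81) and the single lymphocyte marker tested, Ptprc (0.40). Of 9 Kupffer cell and macrophage markers, 3 were higher, including Cd68 (1.07) and Cd14 (1.13), and 2 were lower, including Marco (-1.98). With HYA, 2 of 10 stellate cell markers (Col1a1, -1.12, and Col3a1, -0.83) and 2 of 4 cholangiocyte markers (Spp1, -1.39, and Epcam, -0.84) were lower than in control mice, and none of 10 endothelial or 9 Kupffer cell and macrophage markers was called. The hepatocyte marker Apoh (0.38) was higher, though it was not called on the TPM scale (adjusted p = 0.0536). Summed stellate markers were at 54.2 to 68.2 FPKM in ND-fed, 104.8 to 136.1 in control, 89.8 to 106.1 in HYA-treated and 114.8 to 140.1 in LA-treated mice. Of 10 pancreas markers 7 or 8 were at 0 in each group, with sums of at most 0.197 FPKM, and of 8 adipocyte markers Car3, which hepatocytes also express, made up most of the sum, while Plin1 was at 0 in all mice of 3 groups. The part of these cells in the hepatokine differences was not tested.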

How the data were processed

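Liver RNA-seq values of 12 mice were taken as deposited. Per the labels and the submitters' processing notes, the authors trimmed reads with fastp, aligned them to GRCm38 with HISAT2 2.0.5 and counted with featureCounts 1.5.0-p3. The deposited values are FPKM per gene, made by the authors. The study's methods name TPM, but the columns summed to 342146 to 429286, and TPM would give each mouse the same total. In each column 100% of values up to 1000 fragments, multiplied by gene length, were whole multiples of 1 step within 0.05, so whole fragments were recovered. Gene positions were the same as in GENCODE M21 for 98.3% of shared identifiers.

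Genes averaging 1 FPKM or more were tested on log2(FPKM + 1) with limma 3.58.1 (R 4.3.3, all 12 mice in 1 fit, variance trend, two-sided, Benjamini-Hochberg adjustment over 11083 genes), and called at an adjusted p under 0.05. Log2 fold changes and intervals are on that scale. The labels give separate samples with a number each. The p-values rest on the spread between mice within groups, taken as 1 estimate per gene over all 4 groups of 3 and moderated across genes. They do not measure the spread of only the 2 groups compared. The fit was checked on simulated data. No protein sequences were analysed here.

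The members and gene lists were chosen with earlier results of these data known. From each list, up to 3 genes with the lowest p in control against ND and up to 2 in HYA against control, among those called, are named, with 2 genes of most similar pattern per member. Alternatives were a pseudocount of 0.1, no filter or a mean of 5 FPKM, TPM, median-ratio size factors, limma voom on recovered fragments, a replicate block, a fit of the 2 groups compared, a fold threshold, each mouse left out, and, added after the data were seen, a clock index as a covariate.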

Additional observations from a re-analysis of the deposited data

How the results depend on the processing

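Of 810 log2 fold changes of members recomputed under the alternatives, 745 kept their direction and their side of the threshold, 32 lost and 6 gained a call, and 27 changed sign. No sign change concerned a member that was called in that comparison. Requiring an absolute log2 fold change above 1 left 4 members called in control against ND and 4 in LA against ND. It left 2 in HYA against ND, 0 in HYA against control and 0 in HYA against LA. Over all genes the same requirement left 3.88% called in control against ND. It left 236 genes higher and 151 lower in LA against ND, and 141 and 68 in HYA against ND. In HYA against control it left 18 higher and 16 lower, and in HYA against LA 3 and 9. A fit of the 2 groups alone called 0 members in HYA against control and 0 in HYA against LA, and with no filter on low genes 0 were called in HYA against LA. Over all genes, the fit of 2 groups called 0 in HYA against control, and 61 higher and 33 lower in HYA against LA. With no filter 0 of 26045 genes were called in HYA against LA. Leaving out 1 mouse at a time gave 0 to 3 called members in HYA against control, 0 to 0 in HYA against LA and 4 to 6 in HYA against ND. The same fits called 0 to 377 of all genes higher and 0 to 276 lower in HYA against control. They called 0 to 9 higher and 0 to 11 lower in HYA against LA, and 667 to 856 higher and 526 to 714 lower in HYA against ND.

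Sign changes were of small, uncalled values. In HYA against control, Fgf21 went to -0.10 with TPM and -0.0059 with size factors and Inhbe to -0.0217 with TPM. In LA against control, Gdf15 went to -0.0421 with the clock covariate. Leaving out 1 mouse gave, for HYA against control, -0.20 to 0.34 for Fgf21, -0.10 to 0.29 for Inhbe and -0.56 to 0.0307 for Tsku. For LA against control it gave -0.39 to 0.15 for Fgf21, -0.30 to 0.20 for Gdf15, -0.0449 to 0.0319 for Ahsg, -0.23 to 0.046 for Lect2, -0.0806 to 0.31 for Inhbe, -0.0431 to 0.15 for Inhbc, -0.31 to 0.0235 for Tsku and -0.29 to 0.18 for Igfbp2. For HYA against LA it gave -0.10 to 0.0586 for Inhbe and -0.46 to 0.13 for Tsku. The causes were not tested.

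The samples share only a number. Over 18 pairs of mice with the same number in different groups, deviations from the group means correlated at -0.396 to 0.294 (median 0.00806), 3 pairs were over 0.1, and 2 of 12 mice correlated best with a mouse of their own number. With the replicate block 2 members were called in HYA against LA, Fetub and Lect2 (adjusted p = 0.0432), and the number called in the other comparisons was the same. In HYA against LA the block raised the calls over all genes to 146 higher and 112 lower, against 26 and 28 without it. Depth limited Fgf21 most, which in ND-fed mice rested on 10 to 22 fragments.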
